A study of Mus musculus with 3 samples.

Results

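Reads of 2 transcription factors were counted at 9 genes that carry or restrain JAK-STAT signals in mature mouse megakaryocytes (MK), the large cells that shed platelets. The genes are *Jak2*, *Tyk2*, *Stat3*, *Stat5a*, *Stat5b*, *Socs1*, *Socs3*, *Sh2b3* and *Cbl*, 9 of 22367 protein-coding genes on the autosomes and sex chromosomes of the annotation. They were chosen by name for their place in the pathway, with earlier results of these data known. For each gene, reads were counted within 2 kb of its start and in 400-bp bins over its territory, which is the gene body and 20 kb to either side, and were scaled to library depth.

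Many cytokine receptors of blood cells have no kinase of their own: bound JAK kinases, such as JAK2 and TYK2, phosphorylate the receptor and the STAT proteins, which then enter the nucleus and bind DNA. SOCS proteins, the adaptor LNK (encoded by *Sh2b3*) and the ubiquitin ligase CBL turn the signal down again. FLI1, of the ETS family, and RUNX1 are DNA-binding factors needed for normal MK development.

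MK_Mat were obtained from the livers of wild-type CD1 mouse embryos (embryonic day 15 in the labels, another day in the methods) after 5 days of culture, depletion of cells with TER119, GR1 or CD11b on their surface, and sedimentation through bovine serum albumin. The 3 libraries are a ChIP-seq library with an antibody to FLI1, a ChIP-seq library with an antibody to RUNX1, and input DNA, which was not precipitated. Each ChIP library holds pooled DNA from at least 3 precipitations, so there are no replicates, no test was made, and the 95% intervals given with folds are exact and cover counting error only. All 3 libraries come from cells cultured with cytokine, so no unstimulated state was measured, and the chromatin is that of a bulk culture, in which fewer cells with a bound site and less binding per cell cannot be told apart. The methods describe an input digested with micrococcal nuclease beside sonicated ChIP chromatin, whereas the labels describe sonication only, and the part of this difference in the folds was not tested.

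The depth was 62946422 FLI1, 3973856 RUNX1 and 21745220 input reads, so that a 400-bp bin at the genome-wide rate holds 10.6 FLI1, 0.668 RUNX1 and 3.66 input reads. The RUNX1 file used here is over an order of magnitude smaller than the tag total that the study lists for that library, and every RUNX1 value rests on this file. The study checked its MK by staining, flow cytometry and RNA profiles. No RNA was measured in these libraries, so here the cells could be set against their label only through reads at the starts of marker genes. FLI1 was at or above 2-fold over input at 7 of 10 MK marker starts (median 2.68, range 1.24 to 5.50), at 0 of 5 erythroid, at 1 of 5 granulocyte and macrophage (*Mpo*, 2.44-fold) and at 0 of 4 hepatocyte marker starts. RUNX1 was at or above 2-fold at 1 of the 10 MK markers and at 0 of the others. Over all protein-coding gene starts the shares were 25.5% for FLI1 and 16.7% for RUNX1, so at this threshold the RUNX1 share at the MK markers was no higher than that of all genes. The median RUNX1 fold was 1.64 at the MK markers and 1.18 over all starts. It was 1.58 at the erythroid, 0.73 at the granulocyte and macrophage and 1.24 at the hepatocyte markers. RUNX1 reads thus did not set the MK markers apart from the erythroid ones. The lower bound of the RUNX1 interval was above 1 at 2 of the 10 MK markers, beside 15% of all starts, and 2 genes are too few to set these shares apart.

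The sequences at the summits of the FLI1-rich stretches described most closely are given first. A FLI1-rich bin held at least 3 times the expected reads, the expectation being the highest of the genome-wide rate, the input of the bin and the input of the surrounding 10 kb. Touching FLI1-rich bins were merged into a region, and its summit is the base covered by most fragments of 150 bp. The territories of the 9 genes held 37 such regions. The sequences below are 101 bp around 9 summits on the plus strand of mm9, read from the reference genome. They are shown because the text below turns on the reads or motifs there, and capitals mark matches to the ETS letters CCGGAA or CAGGAA on either strand (TTCCGG or TTCCTG where the match is on the minus strand).
Stat3 start, chr11:100801008-100801108: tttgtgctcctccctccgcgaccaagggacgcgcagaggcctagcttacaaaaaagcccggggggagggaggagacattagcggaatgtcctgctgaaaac
Stat3 intron, chr11:100753042-100753142: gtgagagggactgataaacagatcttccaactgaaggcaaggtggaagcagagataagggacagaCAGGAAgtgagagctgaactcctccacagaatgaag
Jak2 intron, chr19:29327338-29327438: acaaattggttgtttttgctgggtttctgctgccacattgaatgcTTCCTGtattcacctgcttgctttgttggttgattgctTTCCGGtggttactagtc
Jak2 upstream, chr19:29325751-29325851: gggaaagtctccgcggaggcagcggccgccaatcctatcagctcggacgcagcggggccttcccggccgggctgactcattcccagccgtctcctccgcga
Sh2b3 intron, strongest, chr5:122283961-122284061: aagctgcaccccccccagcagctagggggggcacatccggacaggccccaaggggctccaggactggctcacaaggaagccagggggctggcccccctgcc
Sh2b3 intron, downstream, chr5:122274262-122274362: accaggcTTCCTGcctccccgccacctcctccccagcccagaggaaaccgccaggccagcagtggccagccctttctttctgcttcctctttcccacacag
Socs1 downstream, chr16:10772369-10772469: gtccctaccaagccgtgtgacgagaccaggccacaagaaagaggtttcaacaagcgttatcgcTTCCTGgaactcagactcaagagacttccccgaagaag
Socs3 intron, chr11:117830544-117830644: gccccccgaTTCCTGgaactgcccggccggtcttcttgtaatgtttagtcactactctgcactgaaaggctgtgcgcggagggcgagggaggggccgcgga
Socs3 upstream, chr11:117836179-117836279: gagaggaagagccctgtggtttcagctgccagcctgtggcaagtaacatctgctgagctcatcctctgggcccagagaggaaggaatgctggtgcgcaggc
Of these 9 windows, those of the *Stat3* intron, the *Jak2* intron, the downstream *Sh2b3* intron, *Socs1* and the *Socs3* intron hold an ETS match. Those of the *Stat3* start, the *Jak2* upstream region, the strongest *Sh2b3* intron and the *Socs3* upstream region hold none. Only these spellings were searched, and the letters GGAA, in which both end, also stand in each window without a match.

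At the gene starts, FLI1 was enriched over input at the majority of the 9 genes, with the highest folds within 2 kb at *Cbl*, *Sh2b3* and *Stat3*, whose intervals overlap, and the lowest at *Tyk2*. FLI1 was at or above 2-fold over input at 5 of 9 starts (55.6%), those of *Jak2*, *Stat3*, *Socs1*, *Sh2b3* and *Cbl*, beside 25.5% of all 21574 protein-coding gene starts with at least 5 input reads. The median fold was 2.87 over the 9 genes and 1.28 over all starts. RUNX1 was at or above 2-fold at 4 of 9 starts (44.4%), those of *Jak2*, *Stat3*, *Sh2b3* and *Cbl*, beside 16.7% of all starts, with medians of 1.93 and 1.18. At a threshold of 1.5-fold the counts were 8 of 9 for FLI1, beside 40.4% of all starts, and 7 of 9 for RUNX1, beside 33.8%. The lower bound of the interval was above 1 at 8 of 9 starts for FLI1, beside 42% of all starts, and at 4 of 9 for RUNX1, beside 15% of all starts. With the genome-wide rate in place of input RUNX1 was again at or above 2-fold at 4 starts, beside 17.1% of all starts, but not at the same 4: *Jak2* (2.69) and *Sh2b3* (2.39) stayed, *Stat3* and *Cbl* (each 1.80, 0.928 to 3.14) dropped below 2-fold, and *Socs1* (2.24) and *Tyk2* (2.09) passed it. The 9 genes were chosen by name, with earlier results of these data known, and are few, so these counts describe them and carry no test. Counted within 1 kb of the start, FLI1 was 12.9-fold at *Stat3*, 10.3-fold at *Cbl*, 7.44-fold at *Socs1*, 6.17-fold at *Sh2b3*, 5.67-fold at *Jak2* and 2.59-fold at *Stat5b*, but 0.956-fold at *Stat5a*, whose FLI1-rich region lies 1100 bp from the 5′ end of its record and 33 bp from another annotated start of the gene. In the same window RUNX1 was 8.76-fold (3.74 to 21.6) at *Jak2*, 7.82-fold (2.69 to 24.2) at *Cbl* and 5.89-fold (2.57 to 13.6) at *Sh2b3*. It was 4.26-fold (1.35 to 12.8) at *Stat3*, 3.79-fold (1.43 to 9.58) at *Socs1* and 2.74-fold (0.843 to 7.88) at *Stat5b*. RUNX1 was lower at *Tyk2* (1.75, 0.683 to 4.005), *Socs3* (1.46, 0.578 to 3.26) and *Stat5a* (0.365, 0.0422 to 1.44). The RUNX1 intervals of the genes past 2-fold are wide and all overlap, so they give no order among these genes. Within 1 kb 6 of 9 starts were past 2-fold for FLI1, beside 37.3% of all starts, and 6 of 9 for RUNX1, beside 29.1%.

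**Figure D1:**
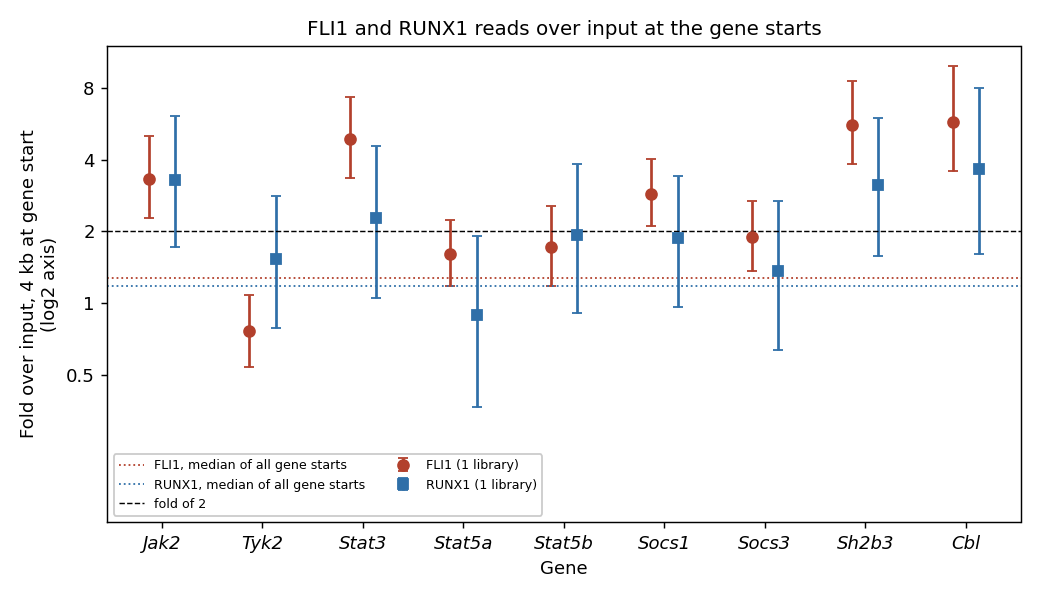
FLI1 (circles) and RUNX1 (squares) reads over input within 2 kb of the start of each gene, as fold on a log2 axis, from 1 library each, with bars for the exact 95% interval of the counts. FLI1 ran from 0.76 at *Tyk2* to 5.76 at *Cbl*, and the dotted lines give the medians over all protein-coding gene starts, 1.28 for FLI1 and 1.18 for RUNX1.

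The 2 Janus kinases of the list differed in their FLI1 reads at the gene start. *Jak2* (ENSMUSG00000024789.6, chr19:29326318-29387570, plus strand, mm9), a kinase that signals from cytokine receptors of blood cells, had 289 FLI1, 18 RUNX1 and 30 input reads within 2 kb of its start. Scaled to depth, that is 4.59 FLI1, 4.53 RUNX1 and 1.38 input reads for each 1000000 reads of the library, or 3.33-fold (2.28 to 5.02) over input for FLI1 and 3.28-fold (1.72 to 6.08) for RUNX1. The FLI1 fold was above that of 93.4% of all starts and the RUNX1 fold above that of 97.2%. *Tyk2* (chr9:20908521-20931790, minus strand), a kinase of the interferon and interleukin receptors too, had 110 FLI1, 14 RUNX1 and 50 input reads. FLI1 there was 0.76-fold (0.539 to 1.08), below 1 with an interval that includes it, and RUNX1 was 1.53-fold (0.782 to 2.82). The FLI1 intervals of the 2 kinases do not overlap, whereas their RUNX1 intervals do. *Jak2* had FLI1-rich regions on both sides of its start, one centred 517 bp upstream with 63 FLI1, 3 RUNX1 and 3 input reads in 400 bp, and one in the intron 1070 bp downstream with 53, 1 and 3. Between them lay the only RUNX1-rich bin of all 9 territories, at least 10 times the expectation. Centred 117 bp upstream of the *Jak2* start, it held 7 RUNX1 reads, 0 input reads and 25 FLI1 reads, or 10.4 times the RUNX1 expectation, and was not FLI1-rich. Of its 7 RUNX1 reads 2 were on the plus strand and 5 on the minus strand, and the bin was not RUNX1-rich when only plus-strand reads were counted.

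In the *Tyk2* territory the FLI1-rich bins lay away from the 5′ end of the gene record. Whether *Tyk2* starts elsewhere in these cells was not tested. The strongest region was intergenic, 4089 bp upstream (118 FLI1, 1 RUNX1 and 7 input reads in 400 bp, 7.95 times the expectation), and the other lay in a coding exon at the start of the neighbouring gene *Raver1*.

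**Figure D2:**
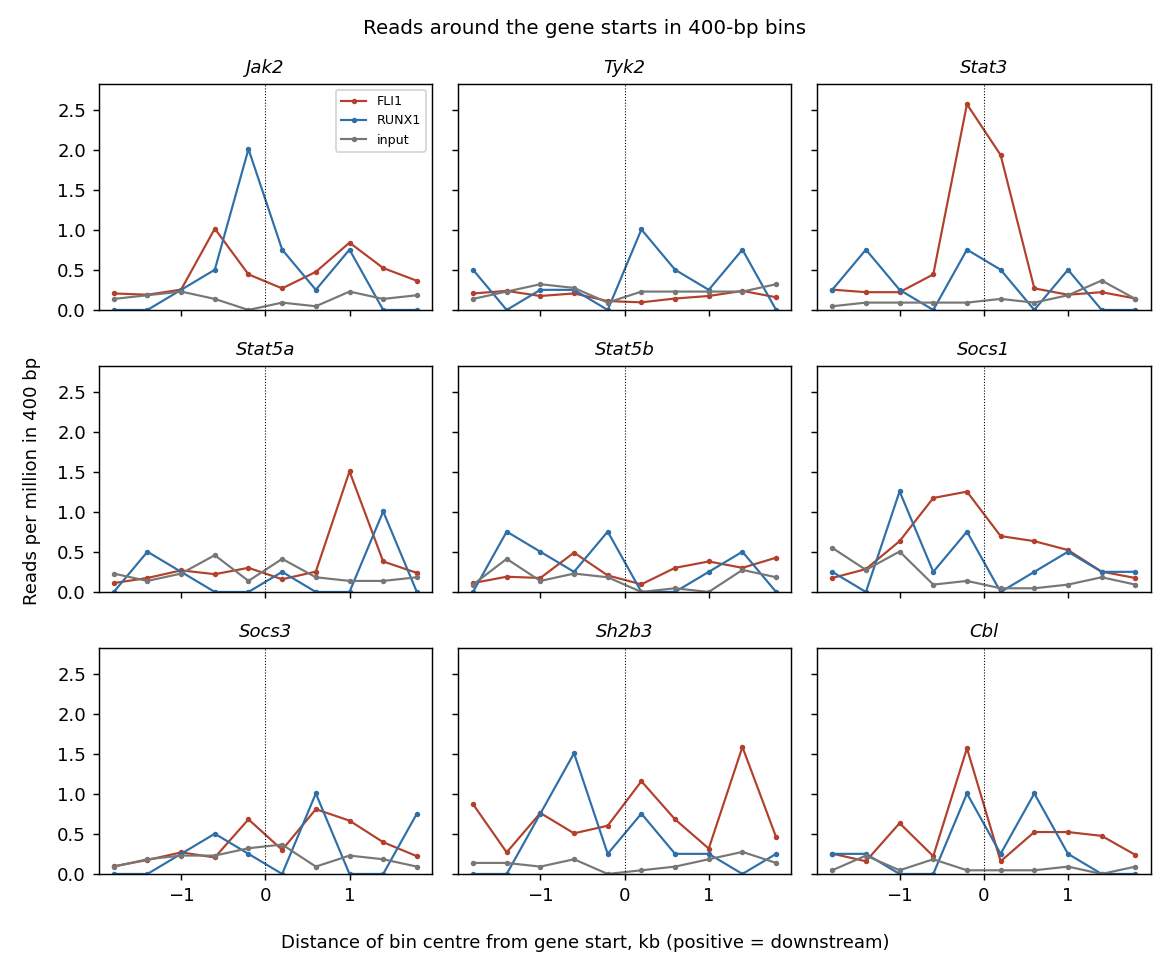
Reads for each 1000000 reads of the library in each 400-bp bin within 2 kb of the start of each gene, for FLI1, RUNX1 and input, against the distance of the bin centre from the start in kb. The tallest FLI1 bins are those on either side of the *Stat3* start, with 162 and 122 reads, and the tallest RUNX1 bin is the one before the *Jak2* start, with 8 reads.

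The STAT genes *Stat5b*, *Stat5a* and *Stat3* lie side by side on chromosome 11 and their territories overlap, so that 3 FLI1-rich regions belong to more than one of them. STAT3 and the closely related STAT5A and STAT5B are the DNA-binding factors that cytokine receptors activate through JAK kinases. *Stat3* (chr11:100746412-100800854, minus strand) had 408 FLI1, 12 RUNX1 and 29 input reads at its start, 4.86-fold (3.33 to 7.35) over input for FLI1 and 2.26-fold (1.05 to 4.58) for RUNX1. *Stat5a* (chr11:100720665-100746483, plus strand) had 228, 8 and 49 reads, 1.61-fold (1.18 to 2.24) for FLI1 and 0.893-fold (0.365 to 1.90) for RUNX1. *Stat5b* (chr11:100642045-100712038, minus strand) had 169, 12 and 34 reads, 1.72-fold (1.18 to 2.56) for FLI1 and 1.93-fold (0.911 to 3.82) for RUNX1. The FLI1 interval of *Stat3* lies above those of *Stat5a* and *Stat5b*, which overlap each other.

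The FLI1 reads within 2 kb of the *Stat3* start were concentrated at the start itself. Of its 408 reads, 162 fell in the 400 bp before the start and 122 in the 400 bp after it, against 3 and 2 RUNX1 and 2 and 3 input reads. The region there, with its summit 204 bp upstream, was 13.5 times the expectation, the highest of the 37 regions, and its 101 bp hold no ETS match as spelled above. *Stat3* also had an intronic region 47762 bp downstream of its start with 132 FLI1, 4 RUNX1 and 6 input reads, 8.12 times the expectation. Its summit window holds the ETS letters CAGGAA and the GATA letters AGATAA, and it lies 1466 bp from another annotated start of *Stat3* as well as inside the *Stat5a* territory. *Stat5a* had a FLI1-rich region 1100 bp downstream of the start, in an untranslated exon (105 FLI1, 2 RUNX1 and 4 input reads, 6.90 times the expectation). The strongest region of the *Stat5a* territory is the *Stat3* intronic one, 32427 bp downstream of the *Stat5a* start, and the strongest of the *Stat5b* territory is the one at *Stat5a*, 9727 bp upstream of the *Stat5b* start. A region 79752 bp downstream of the *Stat5b* start (5.13 times) lay at the start of *Ghdc*. *Stat5b* itself had weaker intronic regions 46184, 28117, 23927 and 9666 bp downstream of its start, of 3.11 to 3.66 times the expectation, and no FLI1-rich bin within 2 kb of the 5′ end of its record, although the region at 28117 bp is 79 bp from another annotated start of the gene.

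**Figure D3:**
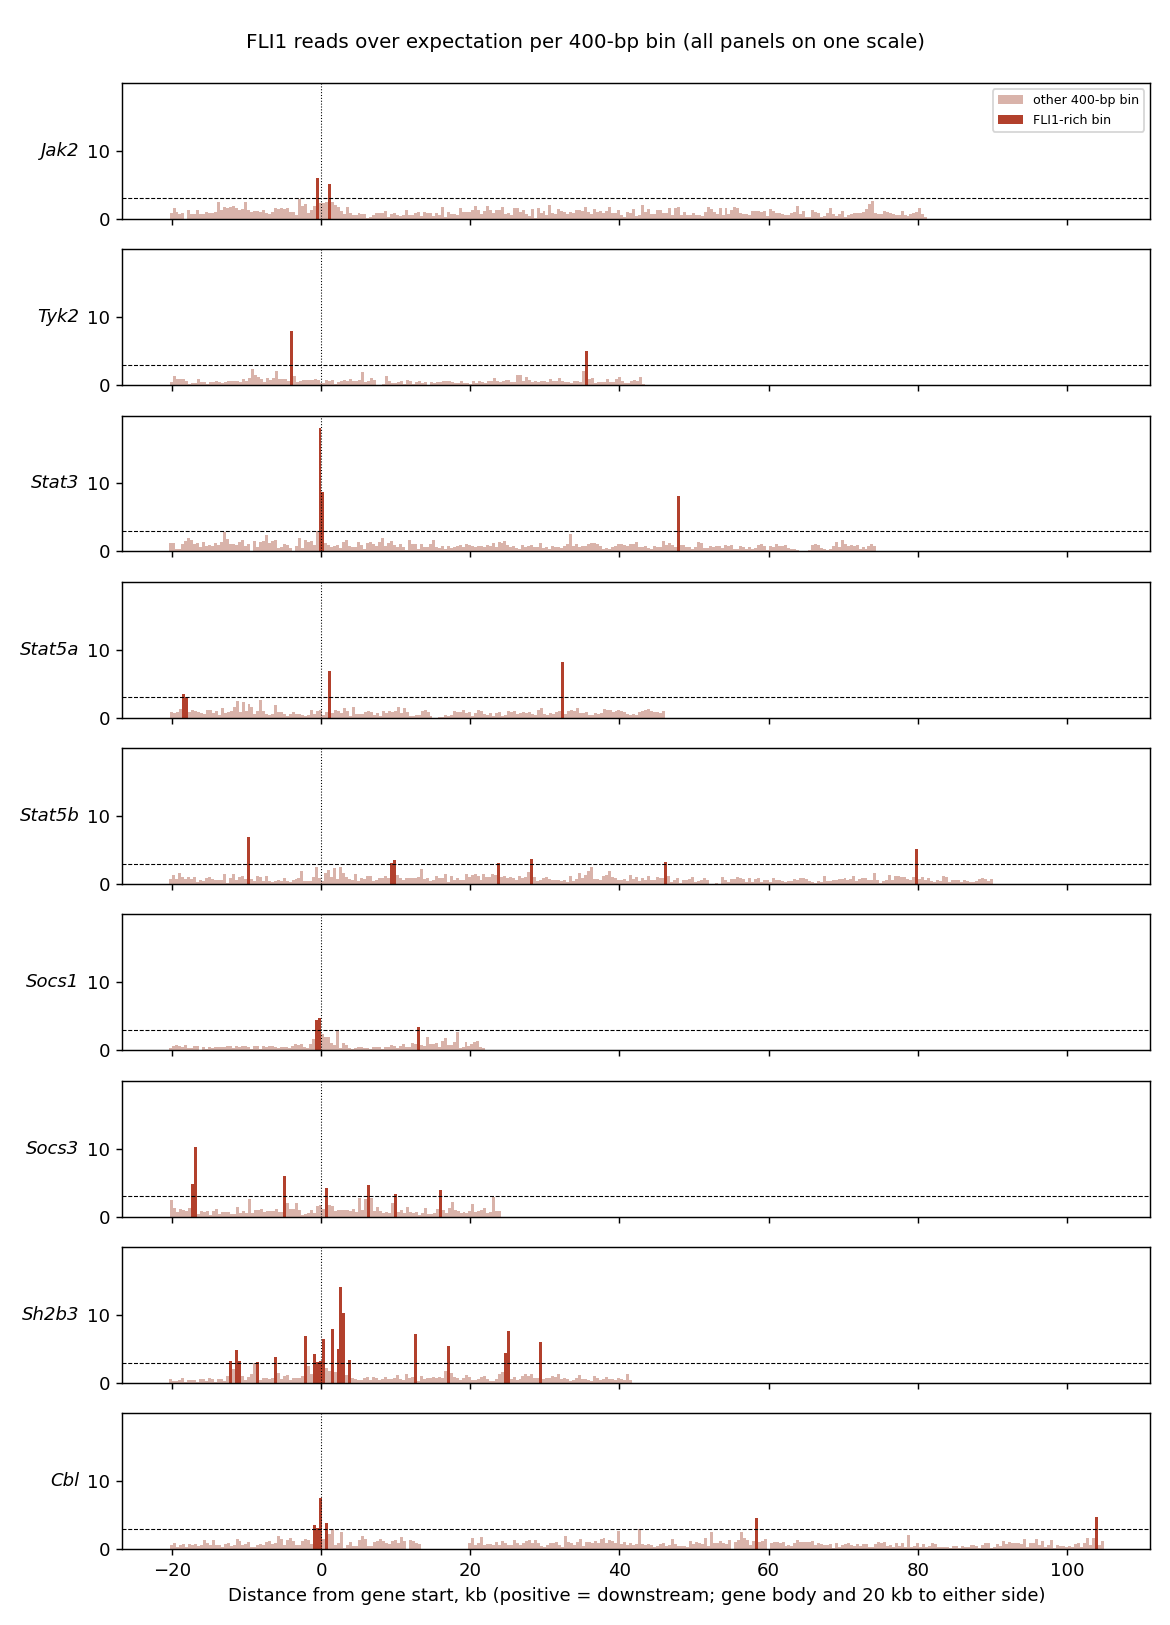
FLI1 reads over expectation in each 400-bp bin of the 9 territories, on 1 vertical scale, against distance from the gene start in kb. Dark bars are FLI1-rich bins, at or above 3 times the expectation (dashed line): the highest is 18.1 at the start of *Stat3*, and the most numerous are the 20 of *Sh2b3*.

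The SOCS genes encode proteins that STATs induce and that block JAK activity in return. *Socs1* (chr16:10783901-10785629, minus strand), an inhibitor of JAK kinases, had 366 FLI1, 15 RUNX1 and 44 input reads at its start, 2.87-fold (2.10 to 4.02) over input for FLI1 and 1.87-fold (0.964 to 3.42) for RUNX1. *Socs3* (chr11:117827393-117831361, minus strand), the inhibitor of signalling through the IL-6 receptor family and JAK2, had 241, 11 and 44 reads, 1.89-fold (1.37 to 2.67) for FLI1 and 1.37-fold (0.637 to 2.69) for RUNX1. The FLI1 intervals of the 2 genes overlap. *Socs1* had a region across its start (76 FLI1, 2 RUNX1 and 1 input reads, 4.66 times the expectation) and a weaker one 13210 bp downstream (58, 2 and 6 reads, 3.46 times). *Socs3* had 6 regions, spread over its territory: 4868 bp upstream with 139 FLI1, 7 RUNX1 and 10 input reads, 6436 bp downstream with 113, 6 and 9 reads, and others 767 bp (94 bp from another annotated *Socs3* start), 9766 and 15814 bp downstream. The 7 RUNX1 reads at the region 4868 bp upstream are the most at any of the 37 summits, 10.5 times the genome-wide RUNX1 rate (4.21 to 21.6), with 10 input reads in the same 400 bp. The strongest region of the *Socs3* territory, 7.50 times the expectation, lay 16791 bp upstream at the start of the neighbouring gene *Pgs1*.

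*Sh2b3* and *Cbl* encode proteins that limit the signal at the receptor, LNK as an adaptor that binds and restrains JAK2, and CBL as a ligase that marks receptors for degradation. *Sh2b3* (chr5:122265497-122286868, minus strand) had 455 FLI1, 16 RUNX1 and 28 input reads at its start, 5.61-fold (3.83 to 8.54) for FLI1 and 3.13-fold (1.58 to 5.98) for RUNX1. *Cbl* (chr9:43957345-44042129, minus strand) had 300, 12 and 18 reads, 5.76-fold (3.58 to 9.85) for FLI1 and 3.65-fold (1.60 to 8.01) for RUNX1. Both FLI1 folds were above those of 99.3% of all starts. The input of *Cbl* was the lowest of the 9 genes, and with the genome-wide rate in place of input its FLI1 fold was 2.83, below the 4.30 of *Sh2b3*, the 3.85 of *Stat3* and the 3.46 of *Socs1*.

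*Sh2b3* had the densest FLI1 occupancy of the 9 genes over its territory. Of its 155 bins 20 (12.9%) were FLI1-rich, a share above that of 99.92% of all gene territories, and they formed 13 regions. The strongest of these, in an intron 2857 bp downstream of the start, held 305 FLI1, 3 RUNX1 and 0 input reads in 400 bp and was 9.85 times the expectation over 1200 bp. A second intronic region 12556 bp downstream held 126 FLI1, 6 RUNX1 and 6 input reads (7.14 times), and others lay 1386 bp downstream (100 FLI1, 0 RUNX1 and 6 input reads), 373 bp downstream, 17109 bp downstream and 1970 bp upstream. Of the 13 regions 4 lay within 2 kb of the starts of the neighbouring genes *Atxn2* and *Fam109a*. *Cbl* had 4 regions. One reached over 1200 bp with its summit 186 bp upstream of the start (99 FLI1, 4 RUNX1 and 1 input reads, 4.72 times the expectation), and others lay 867 and 58320 bp downstream in introns. The strongest by a small margin, 4.79 times, lay 103789 bp downstream of the *Cbl* start, 4212 bp from the start of *Mcam*, with 0 input reads in its bin.

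Over all 9 territories, 50 of 1596 bins (3.13%) were FLI1-rich, beside 0.73% of the bins in all protein-coding gene territories. Without *Sh2b3* 30 of 1441 bins (2.08%) were. Without bins within 2 kb of starts of other genes 40 bins were FLI1-rich, and the share over all territories was not counted at that setting. By gene the share ran from 0.787% at *Jak2* (2 of 254 bins) to 6.31% at *Socs3* (7 of 111) and 12.9% at *Sh2b3*. Bins shared by the STAT genes count for each of them here. For all 9 the share was above the median of gene territories, 0.714%. For some it was near it: *Jak2* was above 52.4% of gene territories, *Tyk2* above 64.4% and *Stat3* above 64.5%. Summed over a whole territory, the FLI1 fold over input was highest at *Sh2b3* (1.54, 1.43 to 1.66) and *Socs3* (1.51, 1.37 to 1.66) and lowest at *Tyk2* (0.805, 0.745 to 0.871), with a median of 0.975 over all genes.

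**Figure D4:**
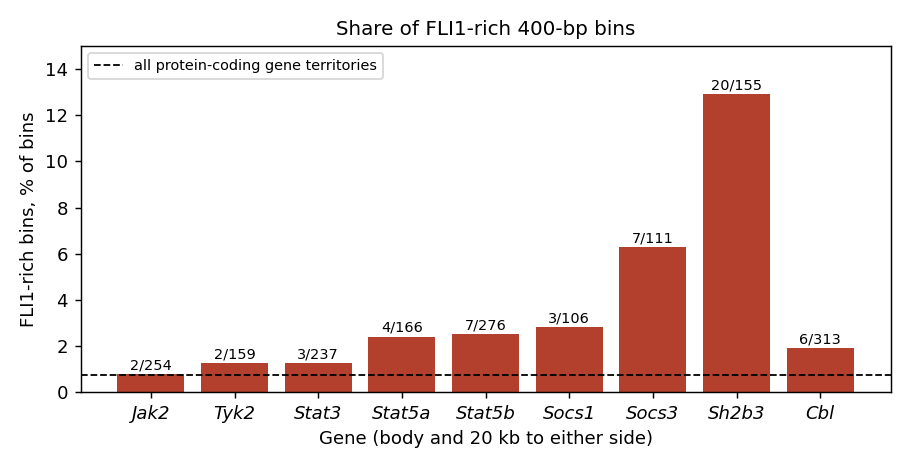
Percent of 400-bp bins that were FLI1-rich in the territory of each gene, from 1 FLI1 library, with the number of FLI1-rich bins and of all bins above each bar. *Sh2b3* (20 of 155) and *Socs3* (7 of 111) stand above the rest, and the dashed line gives 0.73% for all protein-coding gene territories.

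RUNX1 reads were more frequent where FLI1 was rich, although the RUNX1 file used here is shallow. In the 50 FLI1-rich bins of the 9 genes there were 108 RUNX1 and 186 input reads, a fold of 3.18 (2.48 to 4.05), against 1309 and 7221 reads in the other 1546 bins, a fold of 0.992 (0.934 to 1.05). Relative to the genome-wide rates, RUNX1 was 3.23 times and input 1.02 times in the FLI1-rich bins, and 1.27 and 1.28 times in the other bins. In the FLI1-rich bins of all gene territories the fold was 2.92 (2.89 to 2.95), which lies inside the interval of the 9 genes. The input that enters the expectation of FLI1-rich bins also divides the RUNX1 fold. Bins with many input reads are thus less often FLI1-rich, which raises the fold in FLI1-rich bins by construction. When the expectation that defines FLI1-rich bins was the genome-wide rate alone, the fold in the 9 genes was 1.88 (1.58 to 2.24), below the interval of 2.48 to 4.05. With RUNX1 reads of the plus strand only it was 3.71 (2.74 to 4.96). Of the 1596 bins 1 (0.0627%) was RUNX1-rich, the *Jak2* bin, beside 0.0123% in all gene territories, and this is 1 bin. In 400 bp at the 37 summits RUNX1 ran from 0 to 7 reads with a median of 2, FLI1 from 42 to 305 with a median of 75, and input from 0 to 15 with a median of 4. The RUNX1 counts at single summits are small, and 4 of the 37 had no RUNX1 read.

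Of the 37 regions 13 lay within 2 kb of a start of one of the 9 genes, 7 within 2 kb of the start of another gene and 17 farther from any start. By annotation 17 were intergenic, 16 intronic, 2 in untranslated exons, 1 in a coding exon and 1 in another exon. These 17 are not the 17 far from any start. Intergenic here means outside any gene record, so the regions 204 bp upstream of *Stat3* and 49 bp upstream of *Socs1* are among them. Places were not counted over all regions of gene territories. Their median FLI1 over expectation was 4.72, beside 4.61 for all 20027 regions of gene territories.

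The motifs in the 101-bp summit windows were searched on both strands. ETS letters (CCGGAA or CAGGAA) were in 21 of 37 windows (56.8%), beside 59.7% of all 20027 regions and 11.8% of windows 1000 bp away from those summits. RUNX letters (TGTGGT or TGCGGT) were in 7 (18.9%), beside 17.5% and 8.76%. GATA letters (AGATAA) were in 4 (10.8%), beside 8.34% and 5.29%, and NF-E2 or AP-1 letters (TGANTCA) in 2 (5.41%), beside 5.26% and 2.76%. STAT letters (TTCNNNGAA) were in 3 (8.11%), beside 3.10% and 2.91%, and 3 windows are too few to set these shares apart. The STAT matches were TTCCTGGAA in the *Socs3* intron and *Socs1* downstream windows, with TTCCCCGAA also in the latter, and TTCTGGGAA at the start of *Fam109a* in the *Sh2b3* territory. TTCCTGGAA contains TTCCTG, the ETS match of the minus strand, so that both motifs share bases there. The NF-E2 or AP-1 letters TGACTCA stand in the *Jak2* upstream window, and RUNX letters TGTGGT in the *Socs3* upstream window. A match describes letters and does not show a bound site. ETS letters were in 12 of the 20 windows within 2 kb of a start and in 9 of the 17 farther away.

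A further list held 40 other genes of the pathway. These were other JAK, STAT, SOCS, PIAS and phosphatase genes, adaptors, cytokine receptors, further kinases and ubiquitin ligases, and *Sos1*, *Sos2* and *Bcl2l1*. Among them FLI1 was at or above 2-fold at 20 starts (50%, median 2.10, range 0.913 to 4.51) and RUNX1 at 13 (32.5%, median 1.47), beside 25.5% (median 1.28) and 16.7% (median 1.18) of all starts. The highest FLI1 folds were at *Pim1* (405 FLI1 and 31 input reads, 4.51-fold, 3.13 to 6.73), a kinase gene that STAT5 activates, at *Bcl2l1* (444 and 37 reads, 4.15-fold, 2.96 to 5.97), which encodes the survival factor BCL-XL, and at *Pias4* (369 and 32 reads, 3.98-fold, 2.77 to 5.91), an inhibitor of STATs. The lowest were at *Cblc* (0.913), *Csf3r* (1.01) and *Stat4* (1.08).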

How the data were processed

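The deposited values are read positions (chromosome, start, end and strand) on mm9 and not a normalized unit. The authors aligned with Bowtie and dropped duplicates and reads that fit more than one place. The submitters' processing notes also list SICER 1.1 and MACS 1.4, which were not used here, and the version of Bowtie is not given in the sources used here. The ChIP files were free of repeated positions, and 727749 repeated input positions were removed. Reads on chromosome M were left out. Reads were 50 bp for FLI1 and RUNX1 and 34 bp for input.

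Each read's 5′ end was moved 75 bp downstream and counted once (Python 3.11.15, numpy 2.4.6, pandas 2.3.3, scipy 1.17.1). Gene records are those of GENCODE M1 on mm9, and the start is the 5′ end of the record. Fold is the ChIP share of reads over the input share, with an exact conditional binomial 95% interval, and starts needed at least 5 input reads. Reads of both ends of a fragment could not be told apart, so RUNX1 was also counted on the plus strand alone. The bin counts were tested on simulated data.

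The 9 genes and all lists were chosen with earlier results of these data known. All 9 genes are named, each with its strongest FLI1-rich region, as are the 3 highest and 3 lowest of the other pathway genes by FLI1 fold. Further regions, *Mpo* and the neighbouring genes were named after their values were seen. Alternatives covered the window, start, thresholds, bin size and grid, territory, expectation, input repeats, depth and strand. Leaving out *Sh2b3*, or bins near starts of other genes, was added after the data were seen.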

Additional observations from a re-analysis of the deposited data

How the results depend on the processing

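The counts of starts moved with the fold threshold: at 1.5-fold in place of 2-fold, 8 of 9 starts were past it for FLI1 (40.4% of all starts) and 7 of 9 for RUNX1 (33.8%), and at the other settings 4 to 7 and 3 to 6 were. The lowest counts, 4 and 3, were at 3-fold (9.3% and 4.12% of all starts), and the highest were 7 for FLI1 with the genome-wide rate (29%) and 6 for RUNX1 within 1 kb (29.1%). The number of FLI1-rich bins, 50, was 101 with the genome-wide rate as the expectation (6.33% of bins, beside 1.32% in all gene territories), 96 with FLI1 thinned to the RUNX1 depth (6.02%, beside 2.95%), 101 with bins of 200 bp (3.17%, beside 0.704%), 100 at a threshold of 2 (6.27%, beside 1.59%), 22 at a threshold of 5 (1.38%, beside 0.312%) and 30 without *Sh2b3*. The RUNX1-rich bin of *Jak2* was lost (0) with repeated input positions kept (0.0124% of bins in all gene territories). It was also lost at a threshold of 15 (0.00111%) and with plus-strand reads only (0.0415%). With shares this small, 0 of 1596 bins says little. In the 9 territories 3 bins were RUNX1-rich with the genome-wide rate (0.188%, beside 0.0559%), with bins of 200 bp (0.0943%, beside 0.112%) and at a threshold of 8 (0.188%, beside 0.0456%). RUNX1 over input in the FLI1-rich bins was 1.88 with the genome-wide rate as the expectation. The cause of these shifts was not tested beyond what each setting changes by construction. Of 54 FLI1 folds of single genes at other settings 8 left the 95% interval of the reported fold, and of 45 RUNX1 folds, whose intervals are wide, 3 did, most when reads were counted within 1 kb of the start. The FLI1 fold of *Stat5b* was 1.13 with FLI1 thinned. No paired analysis was possible because each antibody has 1 library. The RUNX1 depth limits every statement on single RUNX1 bins.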
